A study of Mus musculus with 8 samples.

Results

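Microglia, the resident phagocytes of the retina, were 1053 of the 11223 CD45+ cells kept from 4 single-cell libraries of mouse posterior eye cups (retina, RPE, choroid and sclera). Cells were kept when 200 to 5000 genes were detected and at most 15% of their UMIs (unique molecular identifiers, each counting 1 captured transcript) were mitochondrial. A kept cell was taken as a microglial cell when at least 3 of the 5 transcripts Tmem119, P2ry12, Sparc, Olfml3 and Sall1 were detected and no UMI of Cd3e, Cd79a or Lyve1 was present. The cells were therefore chosen on measured values, and the levels of these genes are given only as a description.

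The 4 libraries came from Nr4a1-/- laser-treated, Nr4a1-/- control, WT laser-treated and WT control female mice aged 10 to 12 weeks. In the laser-induced choroidal neovascularization (CNV) model, focal burns through Bruch's membrane start the growth of choroidal vessels, and laser-treated eyes received 8 burns and were taken on Day 3, while controls received none. The Nr4a1-/- mice carry a germline null allele of Nr4a1 in all tissues, and they are known to lack non-classical monocytes. Eyes were pooled, with 22 mice for each control library and 11 to 12 for each laser library, so that every group was 1 library. The labels give C57BL/6J for all mice, whereas the methods list a mixed B6;129S2 stock for Nr4a1-/-, so that genotype and background cannot be told apart. The Nr4a1-/- control library carried another library series name than the other 3, so that this series and the Nr4a1-/- control group cannot be told apart either. No group had a replicate: differences below are between libraries, the spread between animals is unknown, no test was made, and each interval is an exact 95% interval that covers counting error only.

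Microglia settle in the retina before birth and renew themselves locally, held in a homeostatic state by TGF-beta, CSF1R and CX3CR1 signaling and by the transcription factors SALL1 and PU.1. They survey the tissue with motile processes that are steered by purine receptors such as P2RY12. After injury, microglia lower these homeostatic genes and can take on an interferon-responsive, a proliferative or a disease-associated (DAM) state, the last marked by Apoe, Spp1, Gpnmb, Lpl and Lgals3.

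The label was compared with markers that the rule did not use. Cx3cr1, the fractalkine receptor, had 1203 CPM (UMIs per 1000000 UMIs of the microglia of a library) in Nr4a1-/- laser, 1810.2 in Nr4a1-/- control, 1446 in WT laser and 1749.9 in WT control microglia. In microglia, 11 markers outside the rule summed to 10748 CPM in Nr4a1-/- laser, 14759 in Nr4a1-/- control, 11743 in WT laser and 12868 in WT control. In resident macrophages this sum was 5689.6 CPM in Nr4a1-/- laser, 6226 in Nr4a1-/- control, 5041 in WT laser and 5142 in WT control. In classical monocytes it was at most 1829.8 CPM. Nav3, a neuron navigator gene, led the genes that were higher in microglia than in resident macrophages, with 1150.5 CPM in Nr4a1-/- laser, 1182 in Nr4a1-/- control, 1199 in WT laser and 1455 in WT control microglia. In resident macrophages Nav3 had 0 CPM in Nr4a1-/- laser, 2.04 in Nr4a1-/- control, 2.78 in WT laser and 8.95 in WT control. Against resident macrophages, 104 of 3782 genes were at least 4-fold higher and 138 at least 4-fold lower in all 4 libraries, with Csmd3, Sall3 and Slc2a5 among the higher genes and Fcna, Cbr2 and Mgl2 among the lower ones. These genes were no part of the rule, but the cells were chosen for microglial markers and against Lyve1, so that the counts are a description with no test. Transcripts of other cell types were low but present. The summed level of 8 resident macrophage markers in microglia was 473 CPM in Nr4a1-/- laser, 195 in Nr4a1-/- control, 309 in WT laser and 215 in WT control, and that of 5 neutrophil markers was 551 CPM in Nr4a1-/- laser, 306 in Nr4a1-/- control, 487 in WT laser and 233 in WT control. Both sums were higher in the laser libraries, and their part in the results below was not tested. Classical monocyte markers summed to 153 CPM in Nr4a1-/- laser, 32.4 in Nr4a1-/- control, 134 in WT laser and 136 in WT control, and NK cell markers to 89.6 CPM in Nr4a1-/- laser, 6.23 in Nr4a1-/- control, 38.4 in WT laser and 91.7 in WT control. Markers of Mueller glia were lower after laser, with 246 CPM in Nr4a1-/- laser, 511 in Nr4a1-/- control, 273 in WT laser and 456 in WT control, nearly all of it Glul, the glutamine synthetase gene (244 CPM in Nr4a1-/- laser, 508 in Nr4a1-/- control, 268 in WT laser and 453 in WT control). B cell markers summed to between 117 and 148 CPM, T cell markers to at most 13.2, dendritic cell markers to at most 71.9, non-classical monocyte markers to at most 28.5, endothelial and mesenchymal markers to at most 70.5, RPE markers to at most 53.7 and photoreceptor markers to at most 27.8 CPM. All 4 hemoglobin genes were at 0 in every library.

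Of the rule markers, Tmem119 had 252 CPM in Nr4a1-/- laser and 461 in Nr4a1-/- control microglia, and 195 in WT laser and 407 in WT control. P2ry12, the ADP receptor that directs processes toward injury, had 400 CPM in laser and 948 in control Nr4a1-/- microglia, and 389 in laser and 819 in control WT microglia. Sall1, the microglial identity factor, had 64.9 CPM in laser and 141 in control Nr4a1-/- microglia, and 72.4 in laser and 139 in control WT microglia. In both genotypes these 3 genes were lower after laser. Sparc, a matrix-binding glycoprotein gene, had 1138 CPM in laser and 1494 in control Nr4a1-/- microglia, and 1193 in laser and 1405 in control WT microglia. Olfml3, an olfactomedin family gene, was slightly higher after laser, with 562 CPM in laser and 453 in control Nr4a1-/- microglia, and 504 in laser and 441 in control WT microglia. A lower marker level makes a cell less likely to meet the rule, so that these levels and the number of cells found are linked. Cells with all 5 markers were 14.3% of Nr4a1-/- laser, 55.2% of Nr4a1-/- control, 34.8% of WT laser and 45.7% of WT control microglia. Just inside the threshold, exactly 3 markers were found in 49 cells in Nr4a1-/- laser, 29 in Nr4a1-/- control, 102 in WT laser and 57 in WT control. Just outside it, 2 markers were found in 57 cells in Nr4a1-/- laser, 28 in Nr4a1-/- control, 146 in WT laser and 67 in WT control. Cells at the threshold differed in part from the others. With exactly 3 markers, Apoe reached 7137 CPM in Nr4a1-/- laser, 22749 in Nr4a1-/- control, 17611 in WT laser and 13331 in WT control, against 2494 CPM in Nr4a1-/- laser, 1148 in Nr4a1-/- control, 1879.8 in WT laser and 1271 in WT control in cells with all 5. Cells at the threshold thus had more Apoe, a transcript that was also high in resident macrophages (15683 CPM in Nr4a1-/- laser, 22868 in Nr4a1-/- control, 17732 in WT laser and 16226 in WT control).

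Microglia were 119 of 1649 kept cells, or 7.22% (6.01 to 8.57), in the Nr4a1-/- laser library and 201 of 2020, or 9.95% (8.68 to 11.3), in the Nr4a1-/- control library. In WT they were 396 of 3791 cells after laser, or 10.4% (9.49 to 11.5), and 337 of 3763 in control, or 8.96% (8.06 to 9.91). The laser share was thus lower than the control share in Nr4a1-/- (ratio 0.725, 0.573 to 0.914) and higher in WT (1.17, 1.01 to 1.35). The WT direction did not hold over other denominators. Among myeloid cells (at least 3 of Csf1r, Cd68, Fcer1g, Tyrobp, Ctss, Lyz2 and Aif1), microglia were 12.4% in Nr4a1-/- laser and 22.4% in Nr4a1-/- control, and 17.1% in WT laser and 20.9% in WT control, with laser ratios of 0.554 (0.437 to 0.698) in Nr4a1-/- and 0.820 (0.707 to 0.952) in WT. Depth also differed: the median microglial cell had 4384 UMIs in Nr4a1-/- laser, 7692 in Nr4a1-/- control, 9898 in WT laser and 7909 in WT control, and shallow cells show fewer markers. Cells were therefore also thinned to 2000 UMIs, and the marker rule was applied again. Kept cells under 2000 UMIs were left out, which were 419 in Nr4a1-/- laser, 135 in Nr4a1-/- control, 246 in WT laser and 396 in WT control. The shares were then 4.88% in Nr4a1-/- laser, 7.64% in Nr4a1-/- control, 5.30% in WT laser and 6.53% in WT control. The laser ratios were 0.639 (0.464 to 0.869) in Nr4a1-/- and 0.812 (0.664 to 0.991) in WT. The Nr4a1-/- laser share was lower than the WT laser share over all kept cells (ratio 0.691, 0.558 to 0.850), but after thinning the ratio was 0.920 (0.676 to 1.24). Between the control libraries, the Nr4a1-/- share was 1.11 times the WT share (0.928 to 1.33). A share of sorted CD45+ cells moves with the number of every other leukocyte, and counts of microglia per eye cannot be had from it.

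**Figure D1:**
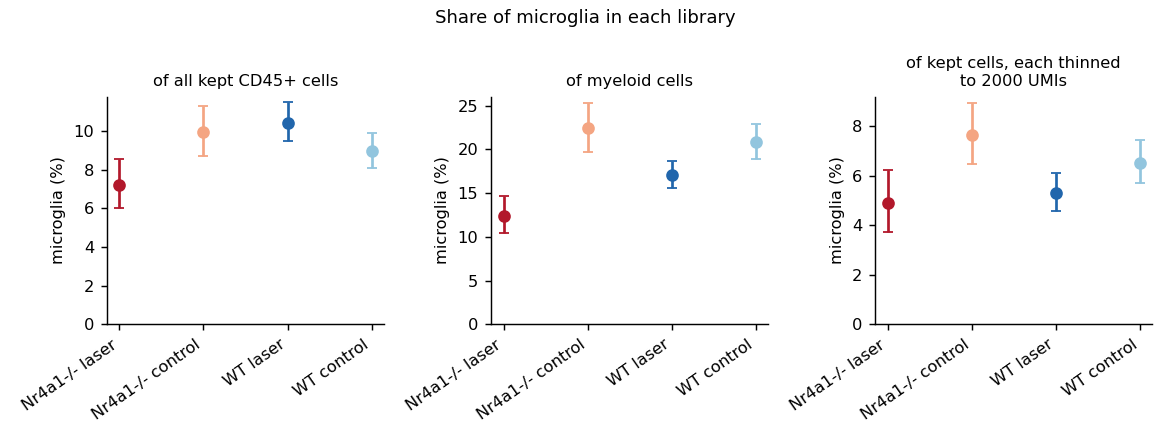
Share of microglia (percent, vertical axis) in the 4 libraries among kept cells, among myeloid cells and among kept cells thinned to 2000 UMIs, with points for shares and bars for exact 95% counting intervals. The Nr4a1-/- laser library had the lowest share in each panel, at 7.22%, 12.4% and 4.88%, and the order of the WT laser and WT control libraries was not the same in the 3 panels.

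The disrupted gene itself was measured first. Nr4a1, an orphan nuclear receptor that is induced within minutes of stimulation (chr15:101254269-101274795, GRCm38), had 37.1 CPM in Nr4a1-/- laser and 174 CPM in WT laser microglia, and 61.6 CPM in Nr4a1-/- control and 207 CPM in WT control microglia. The log2 ratio of Nr4a1-/- to WT was -2.22 after laser and -1.74 in control. Reads remained in Nr4a1-/- cells, and 3' end tags cannot show whether a transcript is intact.

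Laser-treated and control microglia were compared to find what differed on Day 3 in each genotype, over 3309 genes with a mean of at least 50 CPM. The mean was taken over all libraries, so that a gene low in control could pass this limit through its laser levels, and the reverse. In Nr4a1-/-, 206 genes (6.23%) were at least 2-fold higher after laser and 120 (3.63%) at least 2-fold lower. In WT, 133 (4.02%) were higher and 60 (1.81%) lower. In both genotypes at once, 85 genes (2.57%) were higher and 37 (1.12%) were lower, and none was 2-fold in opposite directions. The median log2 laser ratio over all genes was 0.02 in Nr4a1-/- and 0.03 in WT. Of all 3309 genes, 1358 were above 0 and 1222 below 0 in both genotypes, beside which the list counts below should be read. In what follows, a single value in parentheses after a pair of levels is the log2 ratio of that pair, and a value with a range is the ratio with its counting interval. By their list medians, immediate-early, heat shock, homeostatic and identity genes were lower after laser in both genotypes, and interferon, MHC class II, DAM and glycolysis genes were higher. Fewer of these genes were called in stricter sets of cells, where a gene could lose its call through the limit of 50 CPM as well as through its ratio. Of the 85 higher and 37 lower genes, 53 and 23 were called among microglia with at least 4 markers, and 72 and 35 when the highest 5% of microglia for each gene were left out. Without cells over 2 times the median UMIs of their library, 45 and 20 were called. After thinning to 2000 UMIs, 30 and 15 were called. Thinning also changed which cells met the marker rule and left 60 microglia in Nr4a1-/- laser.

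**Figure D2:**
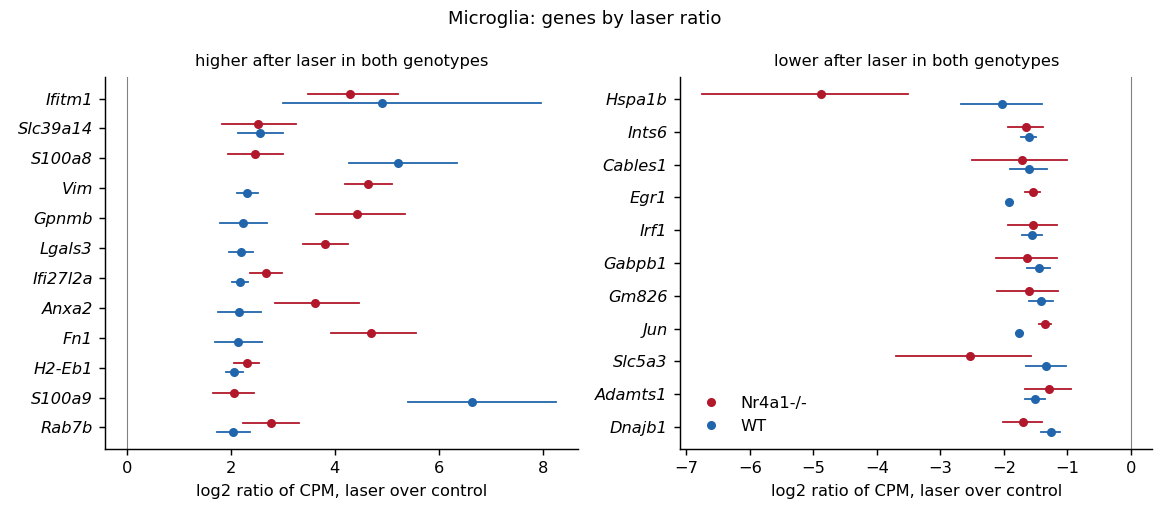
The 12 genes highest and 11 of the 12 lowest after laser in both genotypes, with the log2 ratio of CPM (laser over control, horizontal axis) in Nr4a1-/- (red) and WT (blue) and bars for the counting interval. Vim stood at 4.63 in Nr4a1-/- and 2.31 in WT, Ifi27l2a at 2.67 in Nr4a1-/- and 2.17 in WT, and Egr1 at -1.55 in Nr4a1-/- and -1.91 in WT.

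Homeostatic genes were mostly lower after laser. Of 20 measured, 15 were below 0 in both genotypes and 3 above, with a median log2 ratio of -0.60 in Nr4a1-/- and -0.26 in WT, and 1 of the 20 was at least 2-fold lower in both. That gene was P2ry13, an ADP receptor, with 94.2 CPM in Nr4a1-/- laser and 201 in Nr4a1-/- control microglia, and 89.7 in WT laser and 180.1 in WT control. Cst3, the cystatin C gene and the most abundant of the list, had 11117 CPM in laser and 29311 in control Nr4a1-/- microglia (-1.40), and 12014 in laser and 22671 in control WT microglia (-0.92). Siglech, a sialic acid-binding lectin gene, had 312 CPM in laser and 679 in control Nr4a1-/- microglia (-1.12), and 456 in laser and 537 in control WT microglia (-0.24), so that its values lay closer together in WT. Gpr34, a lysophospholipid receptor gene, had 287 CPM in laser and 645 in control Nr4a1-/- microglia (-1.17), and 424 in laser and 596 in control WT microglia (-0.49). Fcrls, an Fc receptor-like gene, went the other way in Nr4a1-/-, with 428 CPM in laser and 281 in control Nr4a1-/- microglia, against 243 in laser and 237 in control WT microglia. As a share of each cell's UMIs, the 20 genes had a median of 2.52% in Nr4a1-/- laser and 4.23% in Nr4a1-/- control, and 2.48% in WT laser and 3.44% in WT control.

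Factors that set microglial identity followed the same direction, with 10 of 13 genes below 0 in both genotypes and a median of -0.42 in Nr4a1-/- and -0.10 in WT. Sall3, a paralog of Sall1, had 37.1 CPM in laser and 97.1 in control Nr4a1-/- microglia (-1.38), and 50.8 in laser and 105 in control WT microglia (-1.05), and was the only one at least 2-fold lower in both. Irf8, required for microglial development, had 215 CPM in laser and 393 in control Nr4a1-/- cells, and 236 in laser and 339 in control WT cells. Spi1, which encodes PU.1, was above 0 in both, with 465 CPM in laser and 406 in control Nr4a1-/- microglia (0.20), and 535 in laser and 357 in control WT microglia (0.58). Purine sensing genes were mixed, with 3 of 7 above 0 and 2 below 0 in both genotypes and a median of -0.07 over both pairs. Kcnk13, the potassium channel gene THIK-1 that controls process movement, had 236 CPM in laser and 163 in control Nr4a1-/- microglia (0.53), and 330.0 in laser and 203 in control WT microglia (0.70), so that it lay above 0 in both.

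Immediate-early genes, the first transcription factors induced by a stimulus and also by cell dissociation, were lower after laser in microglia. Of 17 measured, 14 were below 0 in both genotypes and none above, 3 were at least 2-fold lower in both, and the median was -0.60 in Nr4a1-/- and -0.83 in WT. Egr1, a zinc finger factor gene, had 1072 CPM in Nr4a1-/- laser and 3128 in Nr4a1-/- control microglia (ratio 0.343, 0.316 to 0.371), and 860.0 in WT laser and 3244 in WT control (0.265, 0.255 to 0.276). Jun, a subunit of AP-1, had 1526 CPM in laser and 3893 in control Nr4a1-/- microglia (-1.35), and 1015 in laser and 3429 in control WT microglia (-1.76). Fos, its partner, had 1354 CPM in laser and 2646 in control Nr4a1-/- microglia (-0.97), and 771 in laser and 2264 in control WT microglia (-1.55). Zfp36, which encodes an mRNA-destabilizing protein, had 359.8 CPM in laser and 1052 in control Nr4a1-/- cells, and 417 in laser and 938 in control WT cells. All libraries had been dissociated and sorted, and the part of dissociation in these levels was not tested. The summed level of the list had log2 laser ratios of -0.94 in Nr4a1-/- and -0.97 in WT microglia, -0.24 in Nr4a1-/- and -0.22 in WT resident macrophages, 0.15 in Nr4a1-/- and 0.37 in WT classical monocytes, and -0.09 in Nr4a1-/- and 0.04 in WT B cells. Per cell, the list took a median of 0.990% of UMIs in Nr4a1-/- laser, 2.51% in Nr4a1-/- control, 0.928% in WT laser and 2.14% in WT control microglia.

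Genes of NF-kB feedback were lower too, though less evenly, with 7 of 11 below 0 and 3 above 0 in both genotypes. Tnfaip3, which encodes the ubiquitin-editing inhibitor A20, had 339.7 CPM in laser and 745 in control Nr4a1-/- microglia (-1.13), and 382 in laser and 771 in control WT microglia (-1.01). Nfkbia, which encodes the inhibitor that holds NF-kB in the cytoplasm, had 1401 CPM in laser and 2546 in control Nr4a1-/- cells (-0.86), and 1210.1 in laser and 2459 in control WT cells (-1.02). Icam1, an adhesion molecule gene, had 417 CPM in laser and 887 in control Nr4a1-/- cells, and 469 in laser and 728 in control WT cells. The promoters of Nfkbia and Tnfaip3 are shown because both carry the NF-kB letters GGG, any 2 bases, TTTCC, searched on both strands from 250 bases before to 50 after the start (RefSeq, GRCm38.p6). Nfkbia lies on the minus strand at chr12:55492598-55492897, with the match at -29 from the start. Tnfaip3 lies on the minus strand at chr10:19015361-19015660, with the NF-kB match at -12 and an AP-1 match (TGANTCA) at -136. Matches are in capitals, and NF-kB letters printed as GGAAA are the reverse complement.
Nfkbia: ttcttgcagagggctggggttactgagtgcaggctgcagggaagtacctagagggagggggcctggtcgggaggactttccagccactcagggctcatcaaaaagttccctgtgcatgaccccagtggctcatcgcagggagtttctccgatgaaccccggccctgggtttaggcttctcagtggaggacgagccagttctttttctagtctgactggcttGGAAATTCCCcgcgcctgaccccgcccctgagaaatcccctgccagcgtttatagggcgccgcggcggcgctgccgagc
Tnfaip3: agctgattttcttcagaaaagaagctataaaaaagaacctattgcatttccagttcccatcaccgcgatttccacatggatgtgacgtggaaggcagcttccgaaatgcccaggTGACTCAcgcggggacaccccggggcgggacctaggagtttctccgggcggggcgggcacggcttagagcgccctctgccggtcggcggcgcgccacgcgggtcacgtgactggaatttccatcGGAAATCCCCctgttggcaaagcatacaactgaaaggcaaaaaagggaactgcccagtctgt
The NF-kB letters were in 4 of the list's 8 genes that had a promoter entry, against 1.89% of 27025 genes and 2.43% of the genes above 50 CPM. The AP-1 letters were in none of 14 immediate-early genes, in 12 of 66 laser-higher genes (18.2%) and in 3 of 28 laser-lower genes (10.7%), against 8.97% of all. Among the genes above 50 CPM the AP-1 share was 7.22%. A match is a description of the letters and not a binding site.

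Genes without a place in these lists were also lower. Ints6, which encodes a subunit of the Integrator complex, had 193 CPM in laser and 606 in control Nr4a1-/- microglia (ratio 0.319, 0.262 to 0.384), and 194 in laser and 593 in control WT microglia (0.327, 0.300 to 0.356). Irf1, an interferon regulatory factor gene, had 102 CPM in laser and 298 in control Nr4a1-/- cells, and 114 in laser and 335 in control WT cells. Adamts1, an extracellular metalloprotease gene, had 116 CPM in laser and 285 in control Nr4a1-/- cells, and 118 in laser and 337 in control WT cells. For Ints6 and Irf1 the ratios in the 2 genotypes lay within their counting intervals of each other. In resident macrophages, Ints6 had log2 ratios of -1.48 in Nr4a1-/- and -0.92 in WT, so that its lower level was not limited to microglia. Gabpb1, an ETS cofactor gene (66.4 CPM in laser and 205 in control Nr4a1-/- cells, and 92.6 in laser and 254 in control WT cells), and Slc5a3, the myo-inositol transporter gene (13.9 CPM in laser and 81.0 in control Nr4a1-/- cells, and 32.6 in laser and 82.6 in control WT cells), were lower in the same way, as were Cables1 and Gm826.

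Heat shock genes had 7 of 9 members below 0 in both genotypes, with a median of -1.40 in Nr4a1-/- and -0.53 in WT, and 3 were at least 2-fold lower in both. Hspa1b, an inducible HSP70 gene, had 6.18 CPM in Nr4a1-/- laser and 181 in Nr4a1-/- control microglia, and 7.19 in WT laser and 29.2 in WT control. Hspa1a, its near-identical neighbor, whose reads the mapping may share with it, had 91.1 CPM in laser and 697 in control Nr4a1-/- microglia (-2.93), and 108 in laser and 244 in control WT microglia (-1.17). Dnajb1, a co-chaperone gene, had 159 CPM in laser and 518 in control Nr4a1-/- cells, and 147 in laser and 353 in control WT cells. The Nr4a1-/- control library stood apart in other cells as well: Hspa1a had 7.26 CPM in Nr4a1-/- laser and 556 in Nr4a1-/- control B cells, against 10.1 in WT laser and 1.45 in WT control B cells. In WT, Hspa1a and Hspa1b were lower after laser in microglia (-1.17 and -1.99) and higher in monocytes (1.42 and 1.23). The WT sum of the heat shock list had log2 laser ratios of -0.55 in microglia and -0.14 in resident macrophages. It was 0.14 in monocytes and -0.08 in B cells. The part of the Nr4a1-/- control library in these differences was not tested.

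Interferon-stimulated genes were higher after laser throughout. Of 9 genes measured, all 9 were above 0 in both genotypes and 5 were at least 2-fold higher in both, with a median of 1.15 in Nr4a1-/- and 1.09 in WT. Ifi27l2a, an interferon-inducible gene, had 502 CPM in Nr4a1-/- laser and 78.5 in Nr4a1-/- control microglia (ratio 6.40, 5.19 to 7.92), and 692 in WT laser and 153 in WT control (4.51, 4.07 to 5.01). Ifitm3, which restricts entry of enveloped viruses, had 406 CPM in laser and 73.5 in control Nr4a1-/- microglia (2.46), and 424 in laser and 177 in control WT microglia (1.26). Ifi204, a DNA-sensing PYHIN family gene, had 164 CPM in laser and 47.9 in control Nr4a1-/- cells (1.77), and 313 in laser and 97.2 in control WT cells (1.68). Slfn5, a Schlafen family gene, had 111 CPM in laser and 19.9 in control Nr4a1-/- cells, and 182 in laser and 72.7 in control WT cells, and Bst2, which encodes the virion tether tetherin, had 400 CPM in laser and 196 in control Nr4a1-/- cells, and 359 in laser and 171 in control WT cells. Isg15, a ubiquitin-like modifier gene, was uneven: it had 67.9 CPM in laser and 30.5 in control Nr4a1-/- microglia (1.15), but 135 in laser and 132 in control WT microglia (0.04). Of these genes, the spread over cells is given for Ifi27l2a only. The share of Ifi27l2a UMIs held by the 5 cells with the most was 27.7% in Nr4a1-/- laser, 39.7% in Nr4a1-/- control, 19.1% in WT laser and 22.1% in WT control.

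The promoters of 4 interferon genes are shown because each carries at least 1 interferon-stimulated response element, searched as GAAA, any 2 bases, GAAA on both strands. Isg15 (minus strand, chr4:156200769-156201068) has 3 overlapping matches at -78, -72 and -66. Ifitm3 (minus strand, chr7:141010695-141010994) has matches at 2 and 19 and an AP-1 match at -105. Slfn5 (plus strand, chr11:82951852-82952151) has 1 match at -155, and Bst2 (minus strand, chr8:71537423-71537722) has overlapping matches at -130 and -124. Sequences are RefSeq, GRCm38.p6, with all matches in capitals.
Isg15: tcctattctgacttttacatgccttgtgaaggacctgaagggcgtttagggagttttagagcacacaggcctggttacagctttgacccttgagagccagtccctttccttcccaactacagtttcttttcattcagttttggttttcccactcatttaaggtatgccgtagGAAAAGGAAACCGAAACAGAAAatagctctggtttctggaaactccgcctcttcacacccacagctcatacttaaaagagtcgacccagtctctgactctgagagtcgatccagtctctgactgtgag
Ifitm3: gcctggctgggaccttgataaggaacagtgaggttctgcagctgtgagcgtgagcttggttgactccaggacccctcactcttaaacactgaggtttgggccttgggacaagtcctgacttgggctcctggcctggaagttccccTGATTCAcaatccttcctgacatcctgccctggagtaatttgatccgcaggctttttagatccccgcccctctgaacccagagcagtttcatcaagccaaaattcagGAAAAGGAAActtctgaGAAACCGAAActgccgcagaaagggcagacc
Slfn5: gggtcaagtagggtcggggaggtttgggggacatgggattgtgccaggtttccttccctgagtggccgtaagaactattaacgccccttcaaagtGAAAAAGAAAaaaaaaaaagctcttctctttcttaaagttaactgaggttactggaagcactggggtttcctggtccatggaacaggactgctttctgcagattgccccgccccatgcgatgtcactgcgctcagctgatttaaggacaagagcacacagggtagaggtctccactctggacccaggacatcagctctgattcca
Bst2: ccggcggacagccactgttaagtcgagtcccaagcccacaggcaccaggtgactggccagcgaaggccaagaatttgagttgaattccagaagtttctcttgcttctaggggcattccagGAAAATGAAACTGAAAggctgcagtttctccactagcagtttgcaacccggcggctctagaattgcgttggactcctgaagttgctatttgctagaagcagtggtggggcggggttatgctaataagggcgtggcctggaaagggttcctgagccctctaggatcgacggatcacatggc
The letters were in 5 of the 6 interferon genes that had an entry, in 8 of 66 laser-higher genes (12.1%) and in 1 of 28 laser-lower genes (3.57%), against 3.99% of 27025 genes. Among the genes above 50 CPM the share was 4.37%.

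After thinning to 2000 UMIs, at least 3 of the 22 interferon genes were detected in 53.2% (43.4 to 62.8) of Nr4a1-/- laser and 18.2% (13.1 to 24.3) of Nr4a1-/- control microglia, and in 59.2% (54.1 to 64.1) of WT laser and 23.2% (18.8 to 28.2) of WT control. Without thinning the shares were 73.1% in Nr4a1-/- laser, 61.7% in Nr4a1-/- control, 92.4% in WT laser and 60.8% in WT control. In thinned B cells the shares were 30.0% in Nr4a1-/- laser, 16.1% in Nr4a1-/- control, 18.9% in WT laser and 18.2% in WT control. The B cell share was thus highest in the Nr4a1-/- laser library, where B cells also had more Ifitm3 (397 CPM, against 43.3 in Nr4a1-/- control, 83.7 in WT laser and 58.2 in WT control), and its part in the Nr4a1-/- microglia ratio was not tested. In WT, the interferon sum had a log2 laser ratio of 1.28 in microglia, 0.35 in resident macrophages, 0.03 in monocytes and -0.02 in B cells. The level did not exceed that of other phagocytes: the list summed to 2784 CPM in Nr4a1-/- laser and 3911 CPM in WT laser microglia, against 5623 CPM in Nr4a1-/- laser and 5944 in WT laser resident macrophages, and 9660.4 CPM in Nr4a1-/- laser and 9276 in WT laser monocytes.

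**Figure D3:**
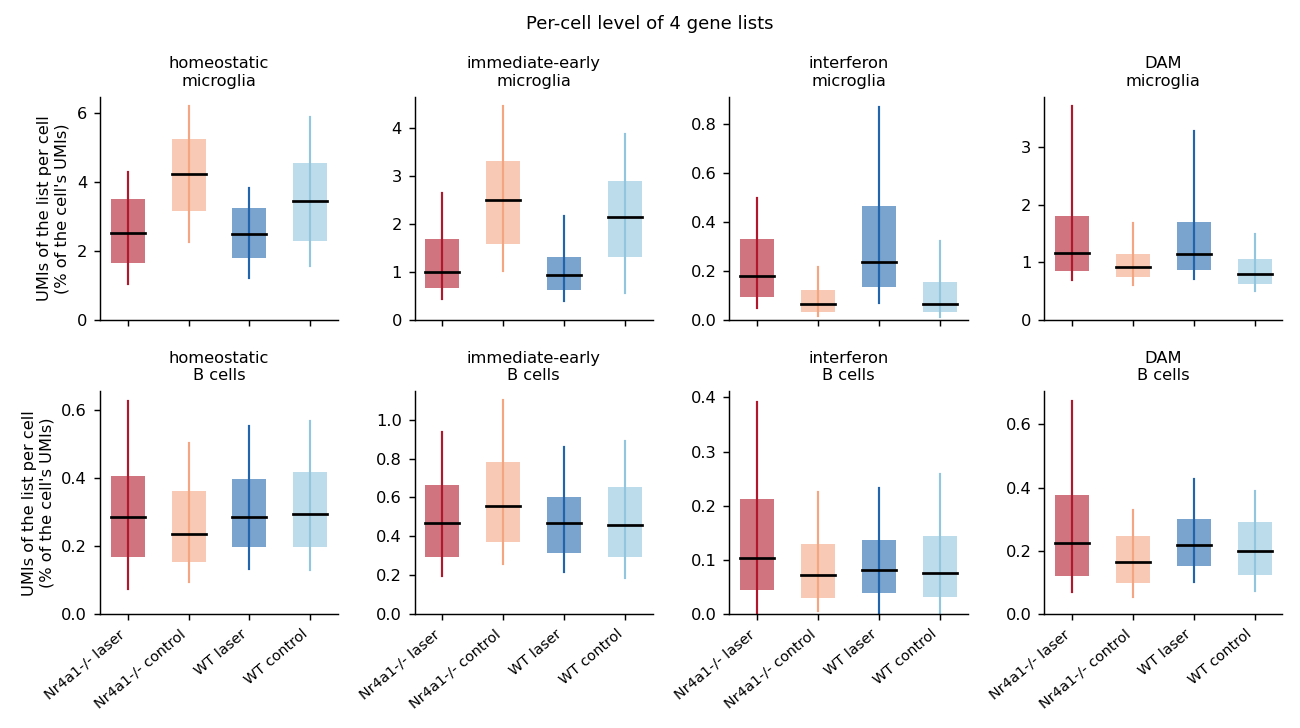
Homeostatic, immediate-early, interferon and DAM genes as a percent of each cell's UMIs (vertical axes, which differ between panels) in microglia (top) and B cells (bottom) of the 4 libraries, with a line at the median, boxes for quartiles and whiskers to the 10th and 90th percentiles. The median interferon share of microglia was 0.178% in Nr4a1-/- laser, 0.0666% in Nr4a1-/- control, 0.236% in WT laser and 0.0631% in WT control, and that of B cells was 0.104% in Nr4a1-/- laser, 0.0719% in Nr4a1-/- control, 0.0811% in WT laser and 0.0755% in WT control.

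MHC class II genes, which present antigen to CD4+ T cells, were higher after laser in sum, but in few cells. All 6 genes measured were above 0 in both genotypes and 4 were at least 2-fold higher, with a median of 1.69 in Nr4a1-/- and 1.67 in WT. H2-Eb1, a class II beta chain gene, had 672 CPM in Nr4a1-/- laser and 136 in Nr4a1-/- control microglia (ratio 4.95, 4.20 to 5.85), and 550.4 in WT laser and 132 in WT control (4.17, 3.73 to 4.68). The share of H2-Eb1 UMIs in the 5 cells with the most was 84.8% in Nr4a1-/- laser, 93.6% in Nr4a1-/- control, 45.6% in WT laser and 87.8% in WT control. Without those cells the levels were 102 CPM in laser and 8.72 in control Nr4a1-/- microglia, and 299.5 in laser and 16.1 in control WT microglia. Cd74, the invariant chain gene, had 1435 CPM in laser and 523 in control Nr4a1-/- microglia (1.46), and 1485 in laser and 547 in control WT microglia (1.44), but was no longer 2-fold in both genotypes when its highest 5% of cells were left out. The list's median over both pairs, 1.68, was 0.55 when cells with over 2 times the median UMIs of their library, which could be doublets, were left out. In Nr4a1-/-, H2-Eb1 and Cd74 then turned to log2 laser ratios of -0.17 and -0.77, and after thinning to 2000 UMIs both stood at -0.09 in WT, so that their direction rested on the choice of cells. With 3, 4 and 5 markers, H2-Eb1 reached 236, 1055 and 371 CPM in Nr4a1-/- laser microglia and 1518, 319.7 and 159.7 CPM in WT laser microglia, so that it was highest at the threshold in WT laser and lowest there in Nr4a1-/- laser. Resident macrophages had 2721 CPM of H2-Eb1 in Nr4a1-/- laser and 3351 in WT laser. The list's share of the median cell's UMIs was 0.0345% in Nr4a1-/- laser, 0.0351% in Nr4a1-/- control, 0.0437% in WT laser and 0.0290% in WT control. MHC class I genes showed little difference, with a median of 0.22 over both pairs and none of 10 at 2-fold in both.

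DAM genes were higher after laser in 14 of 17 cases in both genotypes and lower in none, with 6 at least 2-fold higher in both and a median of 0.95 in Nr4a1-/- and 0.85 in WT. Lgals3, which encodes the galectin that binds damaged lysosomes, had 480.3 CPM in Nr4a1-/- laser and 34.2 in Nr4a1-/- control microglia (ratio 14.0, 10.5 to 19.0), and 286 in WT laser and 62.8 in WT control (4.56, 3.88 to 5.38). Spp1, the osteopontin gene, had 4847 CPM in laser and 14.3 in control Nr4a1-/- microglia, and 769 in laser and 244 in control WT microglia. Its UMIs came from few cells, since the share held by the top 5 was 94.3% in Nr4a1-/- laser, 100% in Nr4a1-/- control, 85.8% in WT laser and 98.4% in WT control. Without them the levels were 275 CPM in laser and 0 in control Nr4a1-/- microglia, and 109 in laser and 4.02 in control WT microglia. Gpnmb, a glycoprotein gene of lysosome-loaded phagocytes, had 188 CPM in laser and 8.72 in control Nr4a1-/- cells, and 82.0 in laser and 17.5 in control WT cells, also mainly in few cells. It passed the limit of 50 CPM only through its laser levels. Fabp5, a fatty acid-binding protein gene, had 383 CPM in laser and 24.3 in control Nr4a1-/- cells, and 206 in laser and 73.4 in control WT cells. Apoe, the lipid carrier gene, had 4682 CPM in laser and 3485 in control Nr4a1-/- microglia (0.43), and 6229 in laser and 3162 in control WT microglia (0.98), and Axl, a receptor for dying cells, had 80.3 CPM in laser and 50.4 in control Nr4a1-/- cells, and 109.8 in laser and 60.7 in control WT cells. With at least 4 markers, Spp1, Fabp5 and Cd52 were no longer 2-fold in WT, with log2 laser ratios of -0.11, 0.20 and 0.99, while Lgals3 was 2-fold in both (3.72 in Nr4a1-/- and 1.27 in WT). Gpnmb kept its ratios there (4.06 in Nr4a1-/- and 2.79 in WT) but was no longer called. The WT direction of Spp1 also turned with more excluded genes (-0.52). Lgals3 was also higher after laser in resident macrophages (1.89 in Nr4a1-/- and 2.11 in WT). In B cells, Lgals3 had 361 CPM in Nr4a1-/- laser and 37.0 in Nr4a1-/- control, so that the difference was not limited to microglia in that pair. The summed DAM list had log2 laser ratios of 0.94 in Nr4a1-/- and 0.62 in WT microglia, and 1.00 in Nr4a1-/- and 0.11 in WT B cells. They were 0.06 in Nr4a1-/- and 0.47 in WT resident macrophages, and -0.20 in Nr4a1-/- and 0.07 in WT monocytes. In Nr4a1-/- the list sum was thus higher after laser in B cells as it was in microglia. The DAM genes took a median of 1.16% of a cell's UMIs in Nr4a1-/- laser and 0.924% in Nr4a1-/- control, and 1.14% in WT laser and 0.805% in WT control, while the 90th percentiles were 3.72% in laser and 1.69% in control Nr4a1-/- cells, and 3.28% in laser and 1.49% in control WT cells.

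Several of the higher genes belonged to none of the lists. Vim, the intermediate filament vimentin gene, had 713 CPM in Nr4a1-/- laser and 28.6 in Nr4a1-/- control microglia (ratio 24.9, 18.4 to 34.5), and 406 in WT laser and 81.5 in WT control (4.98, 4.33 to 5.76). Its log2 laser ratios in other cells were smaller, at 0.98 in Nr4a1-/- and 1.10 in WT resident macrophages, 0.11 in Nr4a1-/- and 0.64 in WT monocytes, and 1.40 in Nr4a1-/- and 0.77 in WT B cells. Anxa2, a membrane-binding annexin gene, had 129.7 CPM in laser and 10.6 in control Nr4a1-/- microglia, and 92.8 in laser and 20.8 in control WT microglia. Fn1, the fibronectin gene, had 241 CPM in laser and 9.34 in control Nr4a1-/- cells, and 80.1 in laser and 18.3 in control WT cells, and its top 5 cells held 62.2% of it in Nr4a1-/- laser, 100% in Nr4a1-/- control, 45.5% in WT laser and 86.0% in WT control. Slc39a14, a zinc and iron importer gene, had nearly equal ratios in the 2 genotypes, with 89.6 CPM in laser and 15.6 in control Nr4a1-/- microglia (5.75, 3.54 to 9.60), and 108 in laser and 18.3 in control WT microglia (5.89, 4.39 to 8.06). Rab7b, which encodes a small GTPase of late endosomes, had 178 CPM in laser and 26.2 in control Nr4a1-/- cells (6.79, 4.73 to 9.91), and 146 in laser and 35.4 in control WT cells (4.13, 3.33 to 5.17). Slc39a14 and Rab7b kept at least 2-fold in both genotypes with at least 4 markers, with both Tmem119 and P2ry12, with equal weight for each cell and without the highest 5% of cells, and in resident macrophages their log2 laser ratios lay between -0.43 and 0.40. Anxa2, Fn1, Slc39a14 and Rab7b were below 50 CPM in control microglia of both genotypes. They thus passed the limit on the mean through their laser levels, the same levels that made their ratios high. The neutrophil genes S100a8 and S100a9 were also among the higher genes but rested on few cells: the top 5 cells held 100% of S100a8 in Nr4a1-/- laser, 100% in Nr4a1-/- control, 99.2% in WT laser and 55.6% in WT control, and thinning to 2000 UMIs brought the mean log2 laser ratio of S100a9 to -0.18. Ifitm1 had 171 CPM in laser and 8.72 in control Nr4a1-/- microglia, and 21.8 in laser and 0.731 in control WT microglia, with at least 86.8% in 5 cells of each library, and its WT control level was 2 UMIs (ratio 29.9, 8.03 to 250.3).

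Plin2, the lipid droplet coat gene, and most glycolysis genes were higher after laser, though not in every set of cells. Plin2 had 292 CPM in laser and 56.7 in control Nr4a1-/- microglia (2.36), and 192 in laser and 60.7 in control WT microglia (1.66), but stood at -0.31 in Nr4a1-/- after thinning to 2000 UMIs. The lysosome and lipid list had a median of 0.27 over both pairs with 10 of 13 genes above 0 in both, and its summed level had a log2 laser ratio of 0.01 in Nr4a1-/- and 0.22 in WT. Of 8 glycolysis and hypoxia genes, 6 were above 0 in both genotypes, with a median of 0.82 in Nr4a1-/- and 0.63 in WT. Gapdh had 693 CPM in laser and 295 in control Nr4a1-/- cells, and 494 in laser and 259.8 in control WT cells, and Pgk1 had 88.0 CPM in laser and 39.9 in control Nr4a1-/- cells, and 65.9 in laser and 32.2 in control WT cells. This list lost its difference when cells were thinned to 2000 UMIs, with a median of 0.00 over both pairs, and Pgk1 then stood at -0.85 in Nr4a1-/-. Complement and efferocytosis genes had medians of -0.08 and -0.06 over both pairs, with none of 8 and none of 10 at least 2-fold in both. Mertk, a receptor for dying cells, was lower after laser (329 CPM in laser and 493 in control Nr4a1-/- cells, and 319.9 in laser and 561 in control WT cells).

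Cytokine genes were divided. Of 14 measured, 9 were above and 3 below 0 in both genotypes, and 1, Il1rn, was at least 2-fold higher in both. Il1rn, which encodes the antagonist of the interleukin-1 receptor, had 72.6 CPM in laser and 27.4 in control Nr4a1-/- microglia (1.40), and 116 in laser and 34.7 in control WT microglia (1.74). Il1b, its agonist, had 763 CPM in laser and 366 in control Nr4a1-/- cells (1.06), and 680.1 in laser and 418 in control WT cells (0.70), where it turned to -0.34 after thinning to 2000 UMIs. Cxcl16, a membrane-bound chemokine gene, had 287 CPM in laser and 164 in control Nr4a1-/- cells, and 340.1 in laser and 196 in control WT cells. Tnf went the other way, with 573 CPM in laser and 946 in control Nr4a1-/- microglia (-0.72), and 642 in laser and 1162 in control WT microglia (-0.85). Growth and matrix genes had a median of 0.20 over both pairs, and 1 of 9 was at least 2-fold higher in both. That gene, the vessel-inhibiting thrombospondin-1 gene Thbs1, had 134 CPM in laser and 42.3 in control Nr4a1-/- cells (1.66), and 74.8 in laser and 36.5 in control WT cells (1.03). In WT its direction turned with at least 4 markers (-0.85) and after thinning (-2.37). Pdgfa, a platelet-derived growth factor gene, had 84.9 CPM in laser and 50.4 in control Nr4a1-/- cells, and 110.3 in laser and 47.9 in control WT cells.

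Cell cycle genes were detected in a larger share of microglia after laser. Of cells thinned to 2000 UMIs, 12 of 109 in Nr4a1-/- laser (11%, 5.82 to 18.4) and 4 of 198 in Nr4a1-/- control (2.02%, 0.553 to 5.09) had at least 3 of 20 cycling genes, and 34 of 387 in WT laser (8.79%, 6.16 to 12.1) and 9 of 327 in WT control (2.75%, 1.27 to 5.16). Without thinning the shares were 19.3% in Nr4a1-/- laser, 17.9% in Nr4a1-/- control, 30.1% in WT laser and 16.6% in WT control. In B cells the thinned shares were 8.75% in Nr4a1-/- laser, 4.90% in Nr4a1-/- control, 5.57% in WT laser and 4.05% in WT control. Single genes were divided. Top2a, the DNA topoisomerase of dividing cells, was detected in 8.26% of thinned microglia in Nr4a1-/- laser, 0.505% in Nr4a1-/- control, 3.62% in WT laser and 2.45% in WT control. Mki67, which marks dividing cells, was detected in 4.59% in Nr4a1-/- laser, 0.505% in Nr4a1-/- control, 3.62% in WT laser and 2.45% in WT control. Pcna, the DNA polymerase clamp gene, went the other way in Nr4a1-/-, with 5.50% in Nr4a1-/- laser, 24.7% in Nr4a1-/- control, 19.4% in WT laser and 18.3% in WT control. With both Tmem119 and P2ry12 required, the share of cells with at least 3 cycling genes was 4.55% in Nr4a1-/- laser and 1.11% in Nr4a1-/- control, and 8.30% in WT laser and 1.77% in WT control. Only 3 cycling genes passed 50 CPM, with a median log2 laser ratio of 0.39 over both pairs.

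**Figure D4:**
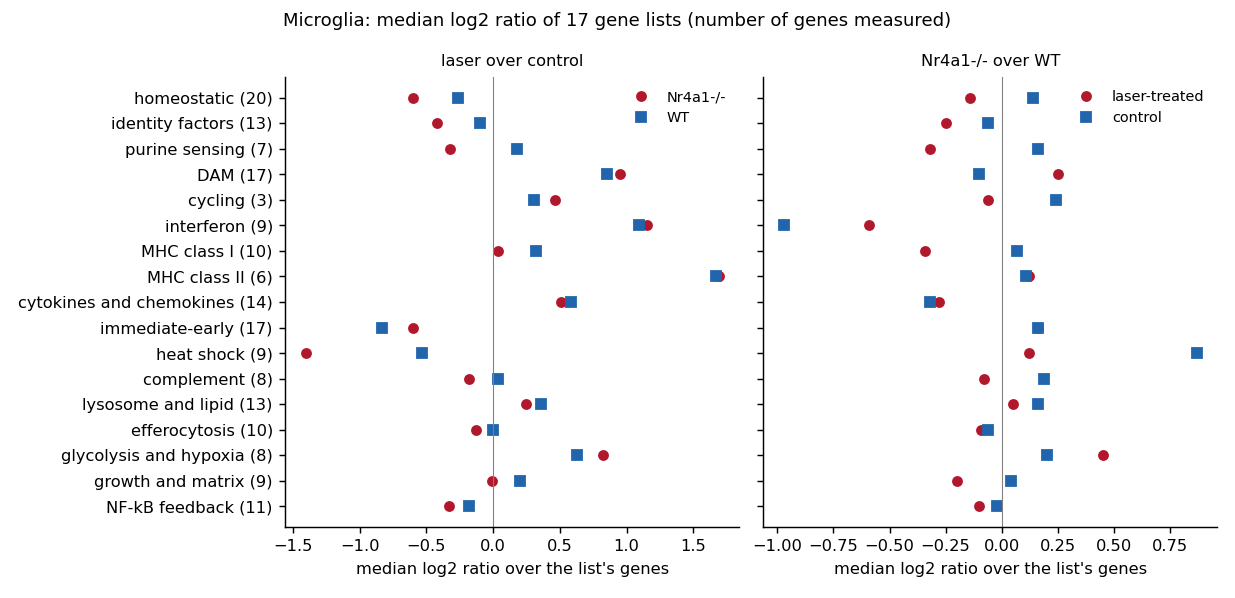
Median log2 ratio of CPM (horizontal axis) for 17 gene lists, laser over control and Nr4a1-/- over WT. Interferon (1.15 in Nr4a1-/- and 1.09 in WT) and MHC class II genes (1.69 in Nr4a1-/- and 1.67 in WT) lay highest after laser, and heat shock (-1.40 in Nr4a1-/- and -0.53 in WT) and immediate-early genes (-0.60 in Nr4a1-/- and -0.83 in WT) lowest, beside a median over all genes of 0.02 in Nr4a1-/- and 0.03 in WT.

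Nr4a1-/- and WT microglia were compared within each treatment to find what differed between the genotypes, which cannot be told apart from strain background. After laser, 14 genes (0.423%) were at least 2-fold higher and 21 (0.635%) at least 2-fold lower in Nr4a1-/-, and in control 15 (0.453%) were higher and 20 (0.604%) lower. In both treatments at once, 1 gene (0.0302%) was higher and 3 (0.0907%) were lower. Of all 3309 genes, 844 were above 0 and 1014 below 0 in both treatments. The higher gene was Ifitm1, which came from few cells and was not called without its highest 5% of cells. Only its Nr4a1-/- laser level was above 50 CPM, so that it entered the compared genes through a library where it was high. The lower genes were Nr4a1 itself, Ifih1 and Gm10076. Ifih1, which encodes the RNA sensor MDA5, had 52.5 CPM in Nr4a1-/- laser and 115 in WT laser microglia (ratio 0.456, 0.312 to 0.646), and 25.5 in Nr4a1-/- control and 93.2 in WT control (0.274, 0.192 to 0.382). In resident macrophages its log2 ratios were -0.88 after laser and -0.73 in control, and in monocytes -0.47 after laser and -0.21 in control. Gm10076, a predicted gene, had 44.8 CPM in Nr4a1-/- laser and 107 in WT laser microglia, and 26.8 in Nr4a1-/- control and 101 in WT control. It was lower in Nr4a1-/- in other cells too, with log2 ratios of -1.29 after laser and -2.37 in control in monocytes, and -1.34 after laser and -2.13 in control in B cells. Both genes kept a 2-fold lower level under the same 4 settings, and over 13 alternatives the log2 ratio after laser ran between -1.35 and -0.91 for Ifih1 and between -1.94 and -0.99 for Gm10076.

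Interferon genes were lower in Nr4a1-/- microglia in summed level in both treatments, but not in the median control cell. Of 9 genes, 8 were below 0 in both pairs, with a median of -0.59 after laser and -0.97 in control, against -0.02 over all genes in each pair. Ifi204 had 164 CPM in Nr4a1-/- laser and 313 in WT laser microglia (-0.93), and 47.9 in Nr4a1-/- control and 97.2 in WT control (-1.02). Slfn5 had 111 CPM in Nr4a1-/- laser and 182 in WT laser (-0.71), and 19.9 in Nr4a1-/- control and 72.7 in WT control (-1.86). The summed list had log2 ratios of Nr4a1-/- to WT of -0.49 after laser and -0.70 in control in microglia. They were -0.08 after laser and 0.04 in control in resident macrophages, 0.06 after laser and 0.04 in control in monocytes, and 0.66 after laser and -0.20 in control in B cells. Per cell, the list took a median of 0.178% of UMIs in Nr4a1-/- laser and 0.236% in WT laser microglia, and 0.0666% in Nr4a1-/- control and 0.0631% in WT control. The 90th percentiles were 0.496% in Nr4a1-/- laser and 0.867% in WT laser, and 0.216% in Nr4a1-/- control and 0.320% in WT control, so that the control libraries differed in the upper part of their cells. No gene of this list was 2-fold lower in both pairs, and 4 were so in the control pair. Among other genes, Ccl12, a monocyte-attracting chemokine gene, had 581 CPM in Nr4a1-/- laser and 926 in WT laser (-0.67), and 426 in Nr4a1-/- control and 623 in WT control (-0.55), but its laser pair stood at 0.11 after thinning to 2000 UMIs. Klf2, a quiescence factor gene, was higher in Nr4a1-/-, with 486 CPM in Nr4a1-/- laser and 304 in WT laser (0.68), and 1092 in Nr4a1-/- control and 542 in WT control (1.01). Hspa1a had 91.1 CPM in Nr4a1-/- laser and 108 in WT laser, and 697 in Nr4a1-/- control and 244 in WT control, and in the control pair B cells differed by more (556 CPM in Nr4a1-/- and 1.45 in WT). Of the other lists, cytokines had 9 of 14 genes below 0 in both pairs and none above (median -0.32 over both pairs), identity factors 8 of 13 below and none above (-0.17), and heat shock genes 6 of 9 above and none below (0.47). Glycolysis and hypoxia genes had a median of 0.35 over both pairs, and the other lists had medians between -0.08 and 0.15, with no gene at least 2-fold in both pairs in any list.

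Surface proteins, read with 87 antibody-derived tags (ADTs), were not used to choose the cells. Values are UMIs of a tag per 10000 ADT UMIs of the microglia, after 2 WT laser cells and 1 WT control cell with over 1000 UMIs of a single tag were left out, a limit chosen after the values were seen. CX3CR1 was 566 in Nr4a1-/- laser, 640.3 in Nr4a1-/- control, 728 in WT laser and 696 in WT control microglia, and at most 51.9 in B cells and 54.5 in resident macrophages. MHCII was 1098 in Nr4a1-/- laser and 311 in Nr4a1-/- control, and 913 in WT laser and 243 in WT control, with log2 laser ratios of 1.82 in Nr4a1-/- and 1.91 in WT. With all cells kept, MHCII was 725 in WT laser and 443 in WT control. Over 10 alternatives it ran between 155 (after thinning to 2000 UMIs) and 1128 in WT laser. In WT control it ran between 165 and 591, so that the WT direction rested on the choice of cells. A single Nr4a1-/- laser cell held 500 of the 1161 MHCII UMIs. MHCII was carried by a minority, since at least 10 UMIs were found in 10.1% of cells in Nr4a1-/- laser, 4.98% in Nr4a1-/- control, 20.2% in WT laser and 6.23% in WT control. In monocytes MHCII was 1621 in laser and 612 in control Nr4a1-/- cells, and 1633 in laser and 329 in control WT cells. In B cells it was 4214 in laser and 3236 in control Nr4a1-/- cells, and 3715 in laser and 2608 in control WT cells. CD11b, an integrin chain of myeloid cells, was 2253 in laser and 2966 in control Nr4a1-/- microglia, and 2124 in laser and 3105 in control WT microglia, so that it was lower after laser in both. CD45 was 1398 in laser and 839.9 in control Nr4a1-/- cells, and 1967 in laser and 1899 in control WT cells, and the B cells of the same libraries had 1401 in laser and 2693 in control Nr4a1-/- cells, and 2798 in laser and 4099.5 in control WT cells.

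Several tags differed more. VISTA, a checkpoint protein of myeloid cells, was 74.7 in Nr4a1-/- laser and 986 in Nr4a1-/- control, and 161 in WT laser and 431 in WT control. It was lower after laser in B cells as well (24.2 in laser and 72.1 in control Nr4a1-/- cells, and 26.6 in laser and 33.1 in control WT cells). Podoplanin was 127 in laser and 17.4 in control Nr4a1-/- cells, and 115 in laser and 17.7 in control WT cells. A single cell held 80 of the 134 Podoplanin UMIs of Nr4a1-/- laser microglia, and without it the value was 53.3. In B cells Podoplanin was 16.1 in laser and 15.3 in control Nr4a1-/- cells, and 95.7 in laser and 9.05 in control WT cells, with 452 of the 785 WT laser UMIs in 1 cell and 41.1 without it. F4/80 was 36.9 in laser and 162 in control Nr4a1-/- cells, and 44.7 in laser and 158 in control WT cells. In B cells, which lack F4/80, it was 19.5 in laser and 72.6 in control Nr4a1-/- cells, and 21.5 in laser and 68.2 in control WT cells. For VISTA, Podoplanin and F4/80 the B cells moved the same way in at least 1 genotype, and the part of free tags was not tested. Some tags differed by library in B cells as well. CD64, an Fc receptor, was 98.4 in laser and 209 in control Nr4a1-/- microglia, and 162 in laser and 3.71 in control WT microglia, and in B cells it was 14.8 in laser and 22.5 in control Nr4a1-/- cells, and 23.5 in laser and 1.56 in control WT cells. CD11c, an integrin chain, was 56.8 in laser and 4.17 in control Nr4a1-/- microglia, and 40.7 in laser and 51.5 in control WT microglia, with 51.1 in laser and 3.39 in control Nr4a1-/- B cells, and 21.8 in laser and 22.4 in control WT B cells. CD64 was thus lowest in the WT control library and CD11c in the Nr4a1-/- control library in microglia and B cells alike. CD88, the C5a receptor, was 138 in laser and 92.5 in control Nr4a1-/- microglia, and 152 in laser and 26.2 in control WT microglia. CD86, a costimulatory protein, was 43.5 in laser and 50.4 in control Nr4a1-/- microglia, and 85.6 in laser and 24.9 in control WT microglia. CD115, the CSF1 receptor, also differed in direction, with 31.2 in laser and 13.9 in control Nr4a1-/- cells, and 16.0 in laser and 31.5 in control WT cells. In B cells CD115 was 16.1 in laser and 5.95 in control Nr4a1-/- cells, and 9.02 in laser and 11.6 in control WT cells. CD88 was 38.3 in laser and 21.9 in control Nr4a1-/- B cells, and 47.3 in laser and 11.9 in control WT B cells. CD86 was 14.8 in laser and 14.2 in control Nr4a1-/- B cells, and 21.9 in laser and 10.4 in control WT B cells. CD115 and CD88 thus had the same directions in B cells as in microglia. SiglecH (log2 laser ratios of -0.05 in Nr4a1-/- and 0.18 in WT) and CD68 (0.35 in Nr4a1-/- and 0.59 in WT) differed less. CD107a, a lysosomal protein, was 62.4 in laser and 6.95 in control Nr4a1-/- microglia, and 70.8 in laser and 2.12 in control WT microglia, beside 28.9 in laser and 10.2 in control Nr4a1-/- B cells, and 48.2 in laser and 2.87 in control WT B cells. CD357 (1.40 in Nr4a1-/- and 1.94 in WT) was also higher after laser, and CD23 (-1.61 in Nr4a1-/- and -3.24 in WT) and CD137 (-1.43 in Nr4a1-/- and -1.31 in WT) were lower, each on fewer than 100 UMIs in at least 2 libraries. In B cells CD357 was 28.2 in laser and 9.54 in control Nr4a1-/- cells, and 23.3 in laser and 4.78 in control WT cells. CD137 was 6.72 in laser and 14.5 in control Nr4a1-/- B cells, and 9.51 in laser and 11.8 in control WT B cells. CD23 was 2.02 in laser and 29.8 in control Nr4a1-/- B cells. In WT B cells CD23 was 33.6 in laser (4.66 without its highest cell) and 30.1 in control. The P2Ry12 tag was 78.5 in Nr4a1-/- laser, 46.2 in Nr4a1-/- control, 175 in WT laser and 43.7 in WT control. With the cells over the limit kept, 1 of which held 33425 UMIs of this tag, it was 3168 in WT laser. Among all 396 WT laser microglia, the median and upper quartile of the P2Ry12 tag were 1 UMI, and 0.505% had at least 10. The median microglial cell had 46.0 ADT UMIs in all in Nr4a1-/- laser, 110.0 in Nr4a1-/- control, 120.0 in WT laser and 133 in WT control, so that tags of low level were measured on few UMIs.

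**Figure D5:**
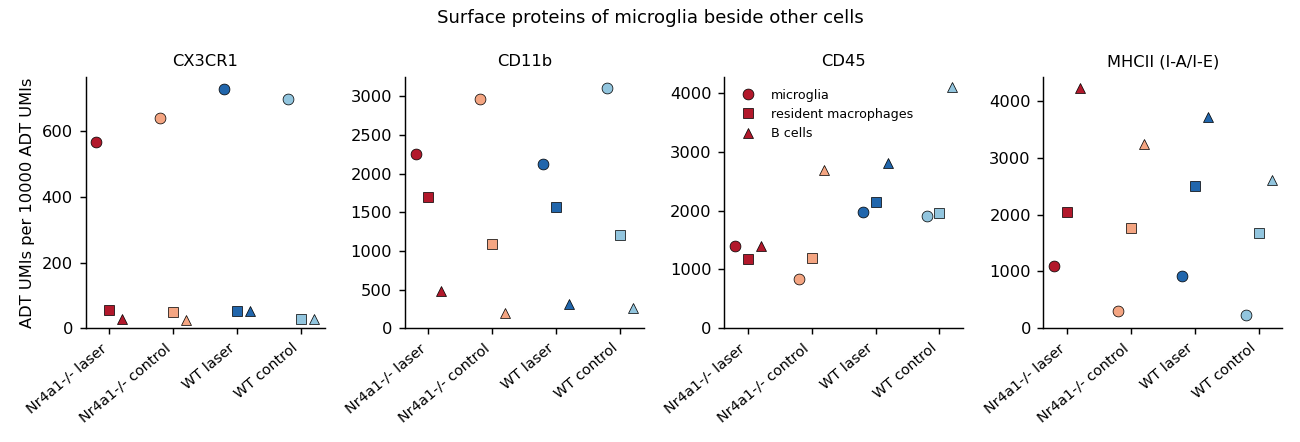
CX3CR1, CD11b, CD45 and MHCII tags (UMIs per 10000 ADT UMIs, vertical axes) in microglia, resident macrophages and B cells of the 4 libraries. CX3CR1 was at least 566 in microglia of every library and at most 54.5 in the other cells, and MHCII in microglia was 1098 in Nr4a1-/- laser and 311 in Nr4a1-/- control, and 913 in WT laser and 243 in WT control.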

How the data were processed

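Cells were CD45+ live-sorted from pooled posterior eye cups and run as CITE-seq on a droplet platform (10x Genomics, 3' tags). The authors deposited raw UMI counts per barcode for RNA (32285 genes) and ADT (87 tags), made per the labels with Cell Ranger 7.0.1 and mm10, so no value had been normalized. Samples were grouped by title, since the other labels of the ADT libraries do not tell them apart. The labels call the controls sham and the titles no laser, and name another kit version than the methods.

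The cell filter followed the study. Doublets were limited only by the upper gene limit. Counts were summed over the microglia of a library. Ratios are of CPM with a pseudocount of 0.5 UMI scaled to library size, and intervals are exact (Clopper-Pearson for shares, Poisson for levels, conditional binomial for ratios, 95%). Library totals were 7848548 RNA UMIs in Nr4a1-/- laser, 13577173 in Nr4a1-/- control, 38052948 in WT laser and 24822857 in WT control, and 3 counts, the smallest level taken as detected, were 4.63 CPM of the microglia in Nr4a1-/- laser, 1.87 in Nr4a1-/- control, 0.719 in WT laser and 1.10 in WT control. Droplets share free RNA, so a low level in a cell type need not be its own. No member barcode and 17 kept barcodes were shared between libraries. Comparison cells (836 resident macrophages, 780 classical monocytes, 1628 B cells) needed at least 3 of 5 markers of their own. Genes named were Nr4a1, the rule markers, the 12 leading genes per direction (ranked by the smaller of their 2 ratios), 4 genes per list with the largest mean ratio, 13 tags and the 6 further tags with the largest change in both pairs. Siglech, Spi1, Apoe, Cd52, Bst2, Tnf, Top2a, Cx3cr1 and the genes beside other phagocytes were named after their values were seen. The cells and lists were chosen with earlier results of these data known. The list genes Aldoa and Clec7a were not analysed here, and a few genes that the rule named are not reported here. The counting of called genes was tested on simulated Poisson counts per library with known folds. These counts held no single cells, so that the test does not cover genes whose UMIs came from few cells. An alternative scaling used TMM factors of edgeR 4.0.16 in R 4.3.3, and the rest was computed with scipy 1.17.1, pandas 2.3.3 and numpy 2.4.6 under Python 3.11.15.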

Additional observations from a re-analysis of the deposited data

How the results depend on the processing

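Alternatives changed 1 choice at a time, except that thinning to 2000 UMIs changed depth and the set of cells together. Cells under 2000 UMIs were dropped and the marker rule was applied to the thinned counts. This gave 60 microglia in Nr4a1-/- laser, 144 in Nr4a1-/- control, 188 in WT laser and 220 in WT control. The thinned shares with interferon or cycling genes above instead kept the microglia chosen before thinning, less those under 2000 UMIs. The share of kept cells (7.22% in Nr4a1-/- laser, 9.95% in Nr4a1-/- control, 10.4% in WT laser, 8.96% in WT control) moved with membership and with depth, and thinning gave the lowest share in every library but Nr4a1-/- laser. With at least 2 markers it was 10.7% in Nr4a1-/- laser, 14.3% in WT laser and 10.7% in WT control, and with at least 4 markers 4.24% in Nr4a1-/- laser, 8.51% in Nr4a1-/- control, 7.76% in WT laser and 7.44% in WT control. Thinning gave 4.88% in Nr4a1-/- laser, 7.64% in Nr4a1-/- control, 5.30% in WT laser and 6.53% in WT control. With both Tmem119 and P2ry12 needed it was 4.24% in Nr4a1-/- laser, 7.44% in WT laser and 7.65% in WT control, and with more excluded genes 8.47% in Nr4a1-/- control, 8.57% in WT laser and 7.81% in WT control. The order of WT laser and WT control was thus reversed by thinning and by requiring both markers.

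The counts of genes depended on the limits. Genes higher after laser in both genotypes (85) were 151 with a filter at 20 CPM, 40 at 100 CPM, 310 at a fold of 1.5 and 31 at a fold of 3. Genes lower (37) were 61, 21, 189 and 3 under these limits, 67 with at least 2 markers, 23 without cells over 2 times the median UMIs and 59 without the highest 5% of cells for each gene. Genes lower in Nr4a1-/- in both treatments (3) were 15 at 20 CPM, 1 at 100 CPM, 30 at a fold of 1.5, 1 at a fold of 3, 8 with at least 2 markers, 5 with at least 4, 6 with no excluded gene, 7 after thinning, 5 with both Tmem119 and P2ry12, 6 with mitochondrial, ribosomal protein and photoreceptor genes left out of the total, and 10 without the highest 5% of cells. Genes higher in Nr4a1-/- (1) were 2, 7, 0, 9, 3, 2 and 3 under the last 7 of these, in that order, 0 with more excluded genes, 0 with TMM scaling, 2 without cells over 2 times the median UMIs, 6 at 20 CPM, 0 at 100 CPM and 5 at a fold of 1.5. The cause of each shift beyond the limit itself was not tested.

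Of 67 genes rerun for laser and 9 for genotype, the mean of both pairs was reversed after thinning for S100a9 (-0.18), Pgk1 (-0.27) and Sparc (0.07) after laser, and for no other gene or alternative. A single pair changed sign, by at least 0.05 on the log2 scale, under some alternative for 13 genes after laser and 2 between genotypes. These were S100a8, S100a9, Plin2, Pgk1 and Apoe in the Nr4a1-/- pair, Fcrls, Isg15, Spp1, Il1b, Thbs1 and Sparc in the WT pair, H2-Eb1 and Cd74 in both, and Ccl12 and Hspa1a in the laser pair. Over 13 alternatives the median log2 laser ratio of the interferon list ran between 0.97 and 1.33, of the immediate-early list between -0.97 and -0.76, of the homeostatic list between -0.62 and -0.27, and of the MHC class II list between 0.55 and 2.53. Requiring both Tmem119 and P2ry12, leaving out the highest 5% of cells, leaving out cells with over 1000 UMIs of 1 tag and leaving out the cell with the most UMIs of a tag were chosen after the data were seen. No paired analysis was possible because every group was 1 library, and no replicate could be left out for the same reason. Depth limits low genes most in Nr4a1-/- laser microglia, where 3 counts were 4.63 CPM.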
